A study of Homo sapiens with 28 samples.

Results

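The regions described here are the HNF4A-only enhancers of GP5d cells. They are HNF4A peaks of the control siRNA library that overlapped a control H3K4me1 peak by at least 1 bp and no control peak of RAD21, SMC3, CTCF, NIPBL, JUND, KLF5, MYC, REST or RFX2. The rule found 3707 of 11122 control HNF4A peaks (33.3%), or 38.0% of the 9764 HNF4A peaks that overlapped H3K4me1. They were chosen by measured values, the peak calls of the control libraries, so their values under control siRNA are a description and were not tested. "Free of cohesin" here means that no RAD21 or SMC3 peak was called over the HNF4A peak. "Enhancer" here names overlap with an H3K4me1 peak only. The rule used no promoter positions, so regions near promoters were not removed.

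GP5d is an established human colon adenocarcinoma cell line. The cells received 50 nM of a neutral, non-targeting siRNA (control siRNA) or of an siRNA against the cohesin subunit RAD21 (RAD21 siRNA) and were harvested after 72 h. Chromatin immunoprecipitation with sequencing (ChIP-seq), which recovers the DNA that a protein or histone mark sits on, gave 1 peak list for each of 11 targets under each siRNA. No replicate library exists for any target and siRNA among these lists, so no test between the siRNAs was made, and every interval below is a 95% interval for counting error over regions within 1 pair of libraries. GP5d cells are 1 line, and no rescue or second siRNA was analysed here.

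HNF4A is a nuclear receptor that binds DNA as a homodimer and drives genes of the intestinal, liver and kidney epithelium, among them genes of lipid handling and of the absorptive cells of the gut. Enhancers are stretches of regulatory DNA away from promoters, and monomethylated lysine 4 of histone H3 (H3K4me1) marks them whether or not they are active. Cohesin, a ring with the subunits RAD21 and SMC3, holds sister chromatids together and extrudes loops of chromatin. NIPBL loads the ring onto DNA, and the zinc finger protein CTCF stops extruding rings at its binding sites. JUND is a subunit of AP-1, KLF5 is a zinc finger activator of the intestinal crypt, MYC binds E-boxes as a partner of MAX, REST represses neuronal genes, and RFX2 binds X-box elements of ciliary genes.

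Library depth differed between the siRNAs for most targets. The RAD21 siRNA HNF4A library held 4993835 filtered tags against 8949817 under control siRNA, a ratio of 0.558. The ratio was 0.528 for H3K4me1, 0.460 for the rabbit immunoglobulin G (IgG) library that both were called against, and 2.02 for JUND. For the other 8 targets it lay between 0.346 for CTCF and 1.02 for MYC, whose list under RAD21 siRNA held 0.535 times as many peaks. The part of depth in the shares below was not tested. The control JUND and NIPBL lists held 0 peaks at a false discovery rate (FDR) under 5%, so exclusion by these 2 targets rests on weak peaks. The labels give the H3K4me1 libraries a catalogue number that is generally known for a pan-histone H3 antibody, so "H3K4me1" below is the label's name. The number given for MYC is likewise known for a mouse antibody, although the title says rabbit.

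Under control siRNA the HNF4A-only enhancers were peaks of middling strength. Their MACS score, −10 × log10 p, had a median of 95.2, with quartiles at 65.5 and 164 and a highest value of 1354. Over all control HNF4A peaks the median was 94.9. Fold enrichment over IgG had a median of 10.1 and ran from 3.78 to 51.7, and peak width had a median of 1416 bp. Of the 3707, 1774 (47.9%, interval 46.2 to 49.5) passed an FDR under 5%. Cohesin-bound HNF4A enhancers, the 3710 H3K4me1-marked HNF4A peaks with a control RAD21 or SMC3 peak, had a median score of 109 and a median width of 1635 bp. The 2347 HNF4A enhancers co-bound without cohesin, which overlapped other targets of the 9 but neither subunit, had a median score of 107. The 956 solitary HNF4A peaks, which lay outside H3K4me1 and overlapped none of the 9, were weaker and narrower, at a median score of 64.4 and a width of 1077.5 bp.

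The H3K4me1 regions that carried HNF4A-only enhancers were narrower and weaker than those of the co-bound classes. The region under an HNF4A-only enhancer had a median width of 3463 bp and a median H3K4me1 score of 445. The medians were 5090 bp and 1021 at cohesin-bound enhancers, and 4995 bp and 841 at those co-bound without cohesin. Against all 61108 control H3K4me1 regions, with a median width of 2384 bp and a median score of 201, they were wider and stronger. The HNF4A summit fell inside an H3K4me1 peak at 99.3% of HNF4A-only enhancers, at a median of 453 bp from the H3K4me1 summit.

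HNF4A-only enhancers were mostly single and far apart. They lay in 3618 H3K4me1 regions, 5.92% of all control H3K4me1 regions. Of these regions 3531 held 1, 85 held 2 and 2 held 3. Neighbours on a chromosome were a median of 341097 bp apart, and 194 of 3682 neighbouring pairs lay within 10000 bp. In these close pairs HNF4A was found at both under RAD21 siRNA in 21, at 1 of them in 85 and at neither in 88. Among all HNF4A-only enhancers it was found at 31.2%, and whether close pairs differ from that was not tested. One of the 2 regions with 3 was the H3K4me1 peak at chr1:175582155-175588738 (hg18), where HNF4A peaks with scores of 240, 128 and 86.5 followed each other. Under RAD21 siRNA an HNF4A peak was found at the one in the middle and at neither neighbour, while H3K4me1 was found at all 3. The share of control HNF4A peaks that were HNF4A-only ran from 27.4% (23.5 to 31.6) on chromosome 17 to 38.9% (33.9 to 44.0) on chromosome 14.

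The rule removed HNF4A peaks that overlapped cohesin, so a gap of 0 could not occur. Beyond that, the distance to cohesin is a description. The nearest control RAD21 or SMC3 peak lay at a median of 14255 bp, counted between the nearest ends, with a range from 7 to 484125 bp. It lay within 1000 bp of 183 (4.94%), within 10000 bp of 1462 (39.4%) and beyond 100000 bp of 100 (2.70%). The share within 10000 bp was 45.7% at enhancers co-bound without cohesin and 29.6% at solitary peaks, so the HNF4A-only enhancers lay between them. At 383 (10.3%) the H3K4me1 region itself held cohesin outside the HNF4A peak, against 15.4% of enhancers co-bound without cohesin, and at 694 (18.7%) it held a peak of at least 1 of the 9 targets. The pair of enhancers closest to exclusion were chr10:4693816-4694622, 2 bp from a MYC peak, and chr20:48795356-48797299, 7 bp from a RAD21 peak. Just outside the rule, chr5:35207799-35209526 and chr3:84067920-84069213 overlapped a NIPBL peak by 9 and 11 bp. In all, 42 enhancers had a peak of the 9 within 100 bp, and 30 H3K4me1-marked HNF4A peaks were kept out by an overlap of at most 100 bp. The 2 farthest from cohesin were chr4:59309913-59310958, at 484125 bp, and chrX:142222251-142223726, at 350750 bp. Neither held HNF4A under RAD21 siRNA, and H3K4me1 was found at the second.

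Under RAD21 siRNA, HNF4A was found again at 1158 of the 3707 HNF4A-only enhancers (31.2%, 29.7 to 32.8). The background over all control HNF4A peaks was 33.4%, so the HNF4A-only enhancers lay slightly below it. H3K4me1 was found at 3104 (83.7%, 82.5 to 84.9), against a background of 90.0% over all H3K4me1-marked HNF4A peaks. At the solitary peaks HNF4A was found at 16.6% (14.3 to 19.1) and H3K4me1, which they lacked by rule, at 12.9%. The plot of all 11 targets sets these shares beside those of the 9 excluded targets.

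**Figure D1:**
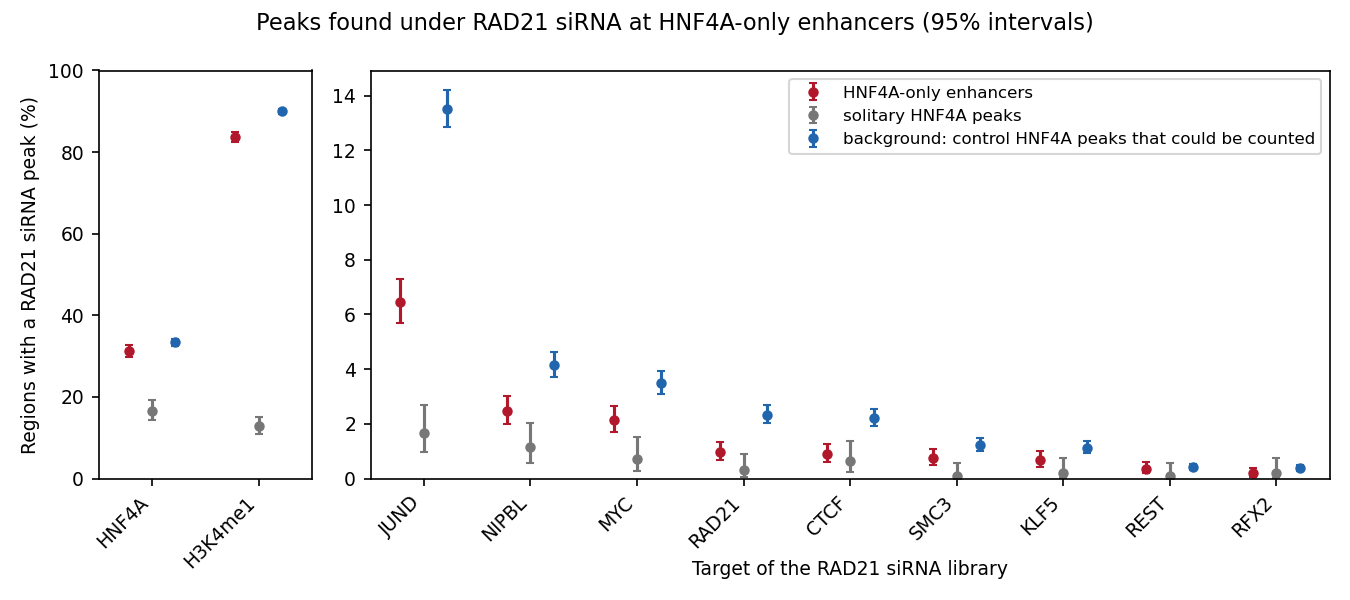
Share of regions (y axis, percent) with a RAD21 siRNA peak of each target (x axis) at the 3707 HNF4A-only enhancers (red), the 956 solitary HNF4A peaks (grey) and the background (blue), with 95% Clopper-Pearson intervals. The background is all control HNF4A peaks for HNF4A, the H3K4me1-marked ones for H3K4me1, and those with no control peak of the target for the other 9. HNF4A was found at 31.2% and H3K4me1 at 83.7% of HNF4A-only enhancers, and JUND, the most frequent of the other 9, at 6.45%.

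Retention followed the strength of the control HNF4A peak. HNF4A was found at 148 of 1276 enhancers (11.6%) with a score from 50 to 75 and at 127 of 681 (18.6%) from 75 to 100. The share was 30.5% from 100 to 150, 44.9% from 150 to 200 and 67.0% from 200 to 400. At a score of 400 or more it was 155 of 165 (93.9%, 89.1 to 97.1). The median control score was 174 at the enhancers where HNF4A was found and 79.5 at the others. H3K4me1 was found at 79.1% of the weakest of these classes and at 97.6% of the strongest. Where HNF4A was found, its summit lay a median of 65 bp from the control summit and within 100 bp at 775 of 1158 (66.9%). Of these 1158 RAD21 siRNA peaks, 77.3% (74.8 to 79.7) had an FDR under 5%, against 65.2% of the whole RAD21 siRNA HNF4A list.

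The 5 strongest retained enhancers, chosen by control HNF4A score, had scores from 1060 to 1354. Over all control HNF4A peaks the highest score was 2304. The top one, chr2:158691828-158697784, had a control HNF4A score of 1354 and a fold enrichment of 36.8 in an H3K4me1 region of 6668 bp, 46103 bp from the nearest cohesin peak. Under RAD21 siRNA its HNF4A peak had a score of 268 and a fold of 22.6, with the summit 71 bp away. Next came chr7:98533580-98535651 with a control score of 1210, whose RAD21 siRNA summit lay 18 bp away. At chr2:219017308-219019722, with a control score of 1106 inside an H3K4me1 region of 16121 bp, JUND was also found under RAD21 siRNA. The other two were chr11:116183282-116185604 (score 1066, summit shift 46 bp) and chr13:30679293-30682353 (score 1060, fold 51.7, summit shift 10 bp). H3K4me1 was found at all 5, and a peak of the 9 excluded targets only at the third. Scores of different libraries depend on their depth and are not compared.

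The strongest enhancers with no RAD21 siRNA HNF4A peak within 1000 bp all kept a called H3K4me1 peak. The first was chr3:109496263-109498886, with a control score of 612 and a fold of 20.3, 7742 bp from cohesin. A region on chromosome 8 followed, with a control score of 485 and the highest fold of these 5, 42.7, and cohesin 768 bp away. The other three were chr4:88367839-88369572 (score 455), chr11:15814619-15817051 (score 447) and chr10:80487955-80489940 (score 446). At the last, NIPBL was found under RAD21 siRNA, and at the first 4 no target of the 9.

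Within strata of control HNF4A score, the difference in retention from cohesin-bound enhancers was small and depended on the setting. The retained shares were 31.2% at HNF4A-only enhancers and 35.1% at cohesin-bound ones, a difference of −3.91 percentage points (−6.05 to −1.77) with no allowance for strength. Averaged over 5 strata of score with Mantel-Haenszel weights it was 1.53 points (−0.305 to 3.37). With 20 strata it was 2.89 (1.06 to 4.71), and with 5 strata of fold enrichment in place of score it was −3.67 (−5.66 to −1.68). The sign of this difference therefore depends on how strength is matched.

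Retention was lower than at enhancers co-bound without cohesin. There the share was 41.1%, and the difference within 5 strata of score was −5.34 points (−7.51 to −3.16). It was below 0 in each of the settings tried, from −11.0 with strata of fold enrichment to −2.20 (−4.61 to 0.213) with strata of peak width, where the interval held 0. The difference from solitary peaks was 14.6 points (11.8 to 17.4) without strata and 0.289 (−2.40 to 2.97) within strata of score. With both lists limited to a score of at least 100 the latter was −8.43 (−14.9 to −1.97).

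**Figure D2:**
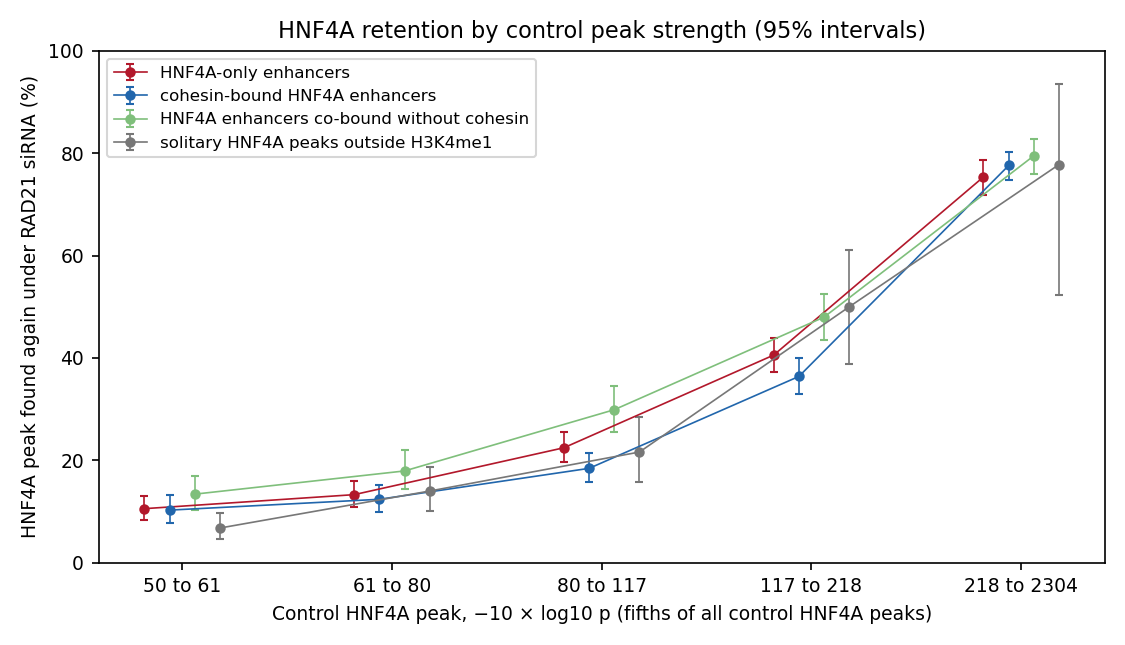
Share of control HNF4A peaks found again under RAD21 siRNA (y axis, percent) in 5 equal bins of all control HNF4A peaks by −10 × log10 p (x axis), for 4 classes of peaks, with 95% Clopper-Pearson intervals. HNF4A-only enhancers (red) go from 10.6% in the weakest bin to 75.4% in the strongest. In the fourth bin the share was 36.4% at cohesin-bound enhancers and 48.0% at those co-bound without cohesin, with intervals that do not overlap.

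H3K4me1 was found less often at HNF4A-only enhancers than at the other marked classes. The shares were 83.7% here, 94.0% at cohesin-bound enhancers and 93.7% at those co-bound without cohesin. Within 5 strata of the H3K4me1 score the differences were −3.11 points (−4.45 to −1.76) and −4.49 points (−5.94 to −3.03). Without strata they were −10.3 and −9.96 points, so most of the plain difference went with the weaker H3K4me1 regions. In 4 equal bins of rising H3K4me1 score, the mark was found at 57.8%, 84.3%, 95.6% and 97.2% of HNF4A-only enhancers. Over the same bins HNF4A was found at 28.0%, 30.5%, 32.0% and 34.4%. The 603 enhancers at which H3K4me1 was not found had a median control H3K4me1 width of 1949 bp and a median score of 141, against 3853 bp and 539 at the 3104 others.

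The presence of HNF4A and of H3K4me1 under RAD21 siRNA went together. Of the enhancers with H3K4me1, 1088 of 3104 (35.1%) held HNF4A, and of those without it 70 of 603 (11.6%). Within strata of HNF4A score the difference was 15.9 points (13.1 to 18.7), and with strata of both scores it was 20.3 points (17.1 to 23.5). Both lists were called against the same IgG library, and the part of that shared background was not tested.

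Together the lists placed each enhancer in 1 of 7 states under RAD21 siRNA. States were not counted for other classes, so whether any is particular to these enhancers was not tested. In the background, HNF4A was found at 33.4% of all control HNF4A peaks and H3K4me1 at 90.0% of the H3K4me1-marked ones. The most frequent state was H3K4me1 alone, at 1873 enhancers (50.5%, 48.9 to 52.1). Another 859 (23.2%, 21.8 to 24.6) again held HNF4A and H3K4me1 with none of the 9. No peak of any of the 11 targets was found at 524 (14.1%, 13.0 to 15.3). HNF4A and H3K4me1 stood with at least 1 of the 9 at 229 (6.18%), and H3K4me1 with at least 1 of the 9 but no HNF4A at 143 (3.86%). HNF4A without H3K4me1 was found at 70 (1.89%). The median control HNF4A score was 175 in the state that still met the rule, 80.2 where H3K4me1 was alone and 76.4 where nothing was found. In that last state the median control H3K4me1 score was 144, against 531 where H3K4me1 was alone.

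**Figure D3:**
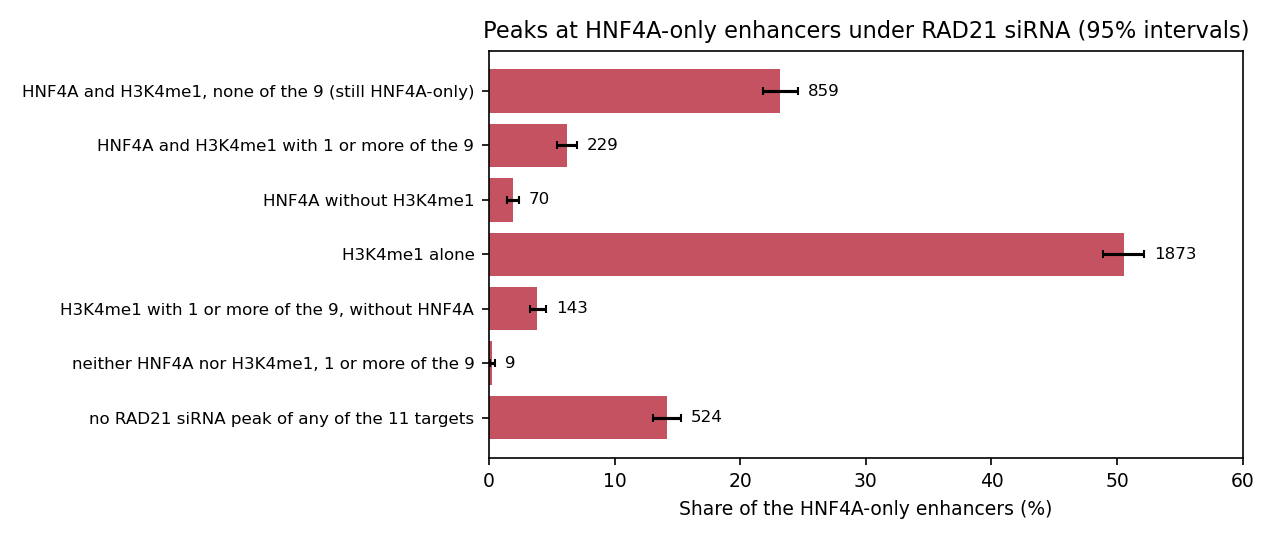
Share of the 3707 HNF4A-only enhancers (x axis, percent) in each state of called peaks under RAD21 siRNA (y axis), with 95% Clopper-Pearson intervals and the number of enhancers beside each bar. H3K4me1 alone (1873) was more frequent than the state that still met the rule (859) and the state with no peak of any target (524). States of other HNF4A peaks were not counted.

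Because the rule removed every control peak of the 9 excluded targets, these could only be gained under RAD21 siRNA. At least 1 was found at 384 enhancers (10.4%, 9.40 to 11.4), at least 2 at 97, at least 3 at 41 and 6 at 4. At the solitary peaks at least 1 was found at 36 of 956 (3.77%, 2.65 to 5.18). Gains of 2 or more were not counted for other classes, so whether they are particular to these enhancers was not tested. For each target the background is the share of all control HNF4A peaks without a control peak of that target that had one under RAD21 siRNA. It takes in co-bound peaks, which the rule kept out of the HNF4A-only enhancers.

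Of the cohesin ring, RAD21 was found at 36 enhancers (0.971%, background 2.34%) and SMC3 at 28 (0.755%, background 1.22%). Either subunit was found at 56 (1.51%, 1.14 to 1.96, background 2.87%). Of the 36 RAD21 peaks 6 had an FDR under 5%, and of the 28 SMC3 peaks 1. In the whole RAD21 siRNA lists 12347 of 19752 RAD21 peaks and 3829 of 12548 SMC3 peaks had such an FDR. The loader NIPBL was found at 91 (2.45%, background 4.16%), 16 of them under that FDR, against 1441 of 6068 in its whole list. CTCF was found at 33 (0.890%, background 2.22%), all under that FDR, as were all 32196 peaks of the RAD21 siRNA CTCF list. That FDR therefore could not sort the CTCF peaks. At 13 of the 33 enhancers the CTCF peak had a score of at least 100. Of these 33 peaks, 5 also reached a control CTCF peak just outside the HNF4A peak. By summits within 250 bp in place of overlap, CTCF was found at 0.216% and RAD21 at 0.486%.

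Of the transcription factors, JUND was found at 239 enhancers (6.45%, 5.68 to 7.29, background 13.5%) and MYC at 79 (2.13%, background 3.49%). KLF5 was found at 25 (0.674%, background 1.12%), REST at 13 (0.351%, 0.187 to 0.599, background 0.41%) and RFX2 at 7 (0.189%, 0.0760 to 0.389, background 0.374%). For REST and RFX2 the interval held the background, so no difference from it was detectable at these counts, and for the other 7 targets the background lay above the interval. Of the 239 JUND peaks 8 had an FDR under 5%, and of the 79 MYC peaks 4, so the JUND share at that FDR was 0.216%. In the whole RAD21 siRNA lists 718 of 12319 JUND peaks and 936 of 7264 MYC peaks had such an FDR. The RAD21 siRNA JUND library was 2.02 times as deep as its control and its list held 2.63 times as many peaks.

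JUND, NIPBL and MYC were gained less often at HNF4A-only enhancers than at HNF4A enhancers that already carried other targets. By rule the former had no control peak of the 9 and the latter at least 1. Strata of score and width do not match the classes on this choice, and its part in the differences was not tested. JUND was found at 20.1% of the 2851 cohesin-bound enhancers without a control JUND peak and at 23.4% of the 1895 such enhancers co-bound without cohesin. Within strata of HNF4A score the differences were −13.3 points (−15.0 to −11.6) and −16.5 points (−18.6 to −14.4). With strata of both HNF4A and H3K4me1 score they were −11.9 and −15.7, and with strata of HNF4A score and peak width −11.0 and −13.7. NIPBL differed by −3.00 (−4.31 to −1.69) and −7.37 points (−9.18 to −5.56), and MYC by −2.36 (−3.45 to −1.26) and −5.83 (−7.45 to −4.21).

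The cohesin subunits and CTCF showed the same order. RAD21 was found at 4.06% of 985 cohesin-bound enhancers that had lacked it and at 4.35% of those co-bound without cohesin. The 985 entered their class only through a control SMC3 peak, while HNF4A-only enhancers had neither subunit by rule. The part of this choice in the RAD21 difference was not tested, nor that of the mirrored choice for SMC3. The differences within strata were −2.98 points (−4.25 to −1.71) and −3.23 points (−4.11 to −2.35). SMC3 differed by −1.52 (−2.72 to −0.322) and −1.37 points (−2.03 to −0.718). CTCF differed by −2.67 (−3.45 to −1.88) and −2.58 points (−3.44 to −1.72). For KLF5 and RFX2 the interval excluded 0 only against the enhancers co-bound without cohesin, at −1.87 and −0.643 points, and for REST against neither. The 9 targets were compared with 3 classes, and these intervals are not adjusted for that number.

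Against the solitary peaks the interval within strata of HNF4A score lay above 0 for JUND, SMC3, REST and MYC. For JUND the difference was 3.46 points (2.27 to 4.65) within strata of HNF4A score and 1.65 points (0.477 to 2.83) with strata of peak width as well. It was 1.53 points (0.685 to 2.38) by summits within 250 bp, and 0.711 (0.00789 to 1.41) for JUND peaks with a score of at least 100. SMC3 differed by 0.498 points (0.149 to 0.848), and by 0.336 (0.0108 to 0.662) with width. REST differed by 0.375 points (0.0400 to 0.711), and by 0.382 (0.0305 to 0.734) with width. At the solitary peaks SMC3 was found at 1 of 956 and REST at 1 of 956, so both differences rest on single peaks there. The Clopper-Pearson intervals of the plain shares overlapped, at 0.502 to 1.09% against 0.00265 to 0.581% for SMC3. For REST they were 0.187 to 0.599% and 0.00265 to 0.581%. MYC differed by 1.00 point (0.221 to 1.78), and by 0.533 (−0.248 to 1.32) with width. Either cohesin subunit differed by 0.697 points (0.113 to 1.28), and by 0.268 (−0.306 to 0.842) with width. Matching on width lowered each of these differences except that of REST. For RAD21, CTCF, NIPBL, KLF5 and RFX2 the interval held 0 with and without width.

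**Figure D4:**
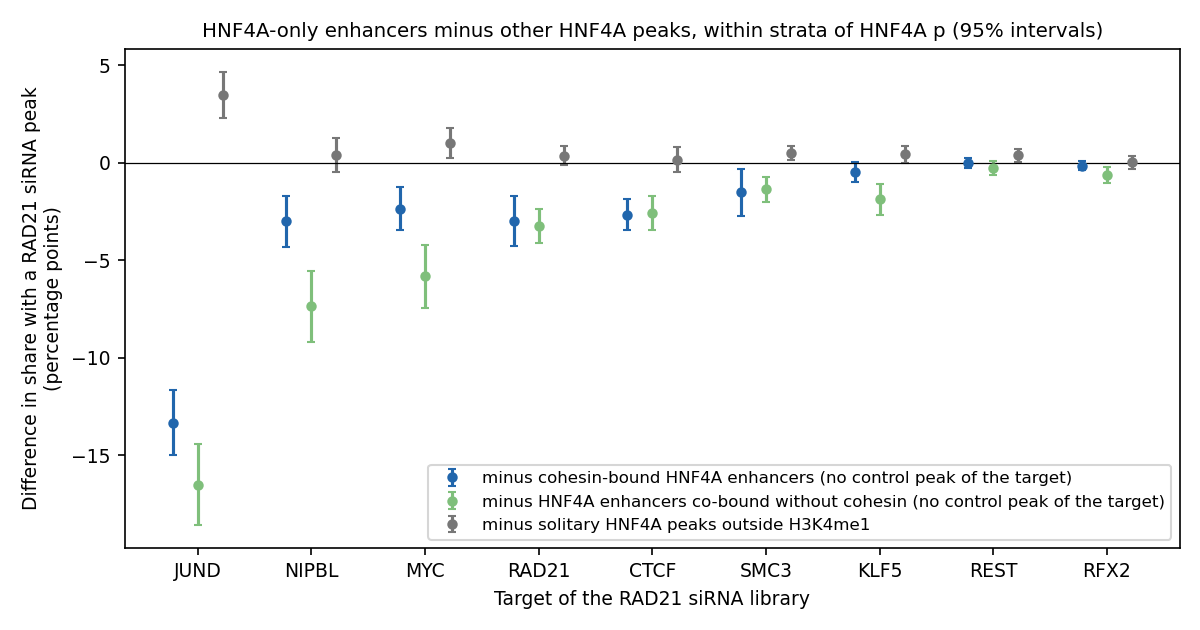
Difference in the share with a RAD21 siRNA peak (y axis, percentage points), HNF4A-only enhancers minus each of 3 other classes of control HNF4A peaks, for the 9 excluded targets (x axis), within 5 strata of HNF4A −10 × log10 p and with 95% intervals. Points below 0 mean fewer gains at HNF4A-only enhancers. JUND lies lowest against both co-bound classes, at −13.3 and −16.5 points, and highest against the solitary peaks, at 3.46.

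Gained peaks of 7 of the 9 targets stood mostly where HNF4A was itself found. HNF4A was found at 232 of the 384 enhancers with at least 1 of the 9 (60.4%, 55.3 to 65.3), against 31.2% of all HNF4A-only enhancers. The counts were 27 of 36 for RAD21, 22 of 28 for SMC3, 67 of 91 for NIPBL, 157 of 239 for JUND, 56 of 79 for MYC and 18 of 25 for KLF5. For the goat antibodies, whose input was goat IgG, HNF4A was found at 21 of 33 CTCF gains but at 1 of 7 RFX2 gains. REST, called against rabbit IgG, stood with HNF4A at 4 of 13. JUND was found at 13.6% of the enhancers with HNF4A and 3.22% of those without, a difference of 10.4 points (8.04 to 12.7) within strata of HNF4A score. H3K4me1 was found at 372 of the 384. HNF4A and the rabbit antibodies share 1 IgG library, and its part was not tested.

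A few sites gained many targets at once, and such sites were not counted for other classes. The enhancer at chr3:48483285-48487217, with a control HNF4A score of 246 in an H3K4me1 region of 13897 bp, held RAD21, SMC3, CTCF, NIPBL, JUND and MYC beside HNF4A under RAD21 siRNA, and its nearest control peak was CTCF at 708 bp. At chr2:20288722-20289857 (score 105) RAD21, CTCF, NIPBL, JUND, KLF5 and MYC were found. At chr19:43830444-43833579 (score 86.8, FDR 6.48%) RAD21, SMC3, NIPBL, JUND, KLF5 and MYC were found in an H3K4me1 region of 25477 bp. These 3 were taken from 4 enhancers with 6 targets by their control HNF4A score.

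The strongest gained peaks of RAD21, JUND, MYC and CTCF overlapped enhancers with control HNF4A scores from 52.6 to 250. The highest RAD21 score under RAD21 siRNA, 327 with a fold of 30.0, was at chr14:38804166-38806165, 32917 bp from the nearest control cohesin peak, where SMC3, NIPBL, JUND and MYC were found too. Its HNF4A peak had a control score of 250 and a RAD21 siRNA score of 1742, with a fold of 79.0 in that list. These scores come from libraries of different depth and are not compared. The highest JUND score, 649, was at chr17:1566450-1568200, where the control HNF4A score was 52.6 and a control KLF5 peak lay 100 bp away. The highest MYC score, 225, was at chr4:113370971-113372317, with NIPBL and JUND. The highest CTCF score, 688, came from a peak at chr12:927884-930301, which reached only the edge of the enhancer at chr12:930260-931711. A control RAD21 peak lay 75 bp from that enhancer, and HNF4A was not found there.

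HNF4A retention lay between 30.2% and 33.9% in every distance bin beyond 1000 bp from control cohesin. The share was 31.7% at the 1462 enhancers within 10000 bp of a control cohesin peak and 31.0% at the 2245 others, a difference of 0.727 points (−1.94 to 3.40) within strata of score. Within 1000 bp it was found at 39 of 183 (21.3%, 15.6 to 28.0), where the median control score was 85.4. From 1000 to 5000 bp the share was 33.9%, and beyond 100000 bp it was 32 of 100. H3K4me1 was found at 92.3% within 1000 bp, 83.9% from 10000 to 20000 bp and 74.0% beyond 100000 bp. These shares were not matched on control H3K4me1 score, over whose 4 bins the share went from 57.8% to 97.2%.

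**Figure D5:**
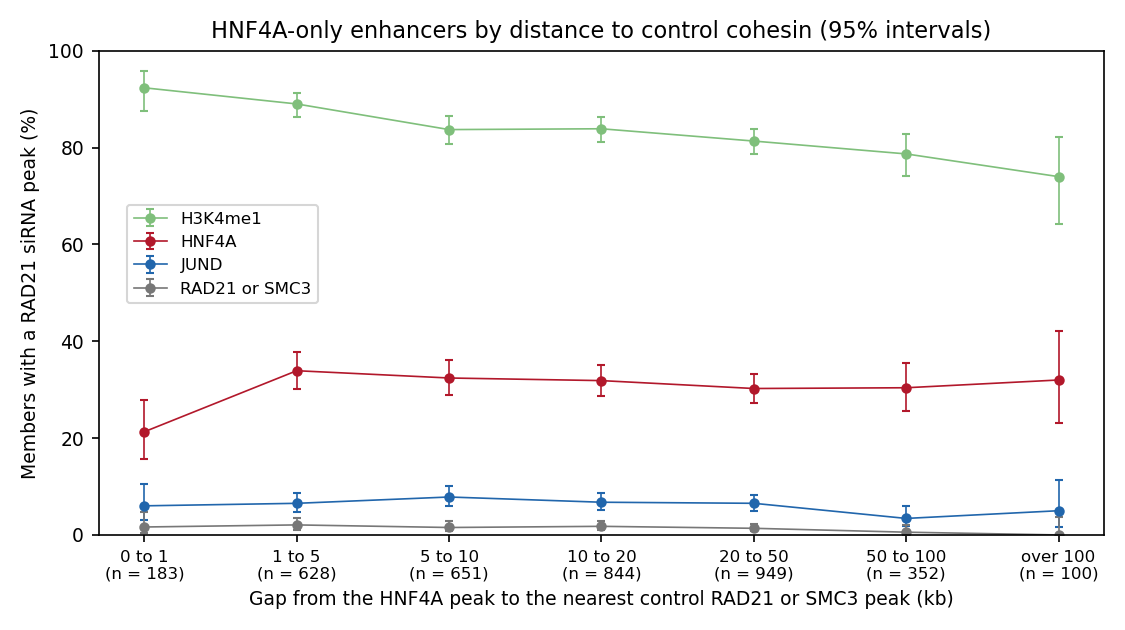
Share of HNF4A-only enhancers with a RAD21 siRNA peak (y axis, percent) by the gap to the nearest control RAD21 or SMC3 peak (x axis, kb, with the number of enhancers), with 95% Clopper-Pearson intervals. HNF4A was found at 21.3% within 1 kb and at 30.2% to 33.9% in the other bins, while H3K4me1 went from 92.3% to 74.0%. The bins were not matched on control scores.

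Where the H3K4me1 region held cohesin outside the HNF4A peak, HNF4A was found at 27.2% of 383 enhancers, against 31.7% of the other 3324. The difference was −4.45 points (−8.44 to −0.447) within strata of HNF4A score and −4.55 (−9.28 to 0.172) without strata. H3K4me1 was found at 96.1% and 82.3% of the same groups. With strata of both scores that difference was 3.30 points (0.918 to 5.68), against 13.8 without.

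Applied to the RAD21 siRNA lists, the same rule found 2385 of 7082 HNF4A peaks (33.7%), or 39.8% of those with H3K4me1, close to the 33.3% and 38.0% under control siRNA. Of these 2385, 861 (36.1%, 34.2 to 38.1) overlapped an HNF4A-only enhancer of the control lists. Another 481 (20.2%) overlapped a cohesin-bound enhancer, 365 (15.3%) one co-bound without cohesin, and 628 (26.3%) no control HNF4A peak. At 509 of those 628 (81.1%) a control H3K4me1 peak was present. A region that was co-bound under control siRNA enters this class where the peaks of its other targets were not called, and 7 of the 9 excluded targets had shorter lists under RAD21 siRNA.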

How the data were processed

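The submitters' processing notes name CASAVA 1.4, BWA, MACS 1.4 and the hg18 build. Per the file headers, the authors called each list with MACS 1.4.0rc2 at a p cutoff of 1e-05, with IgG from cells under that siRNA as the input. Deposited per peak were a score (−10 × log10 p), a fold enrichment ratio and an FDR in percent. The unnamed column of the deposited files was read as FDR in percent, since its values under 5 matched the labels' counts in 22 of 22 lists. Scores and folds are the authors' own and were used within a list. Groups come from titles. In the siRNA tag of most RAD21 siRNA libraries, RAD is followed by other, rising numbers. Tag and title therefore name different targets there, and the title was used.

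All deposited peaks entered, found meant overlap by 1 bp, and shares have Clopper-Pearson intervals. Differences are Mantel-Haenszel averages with Sato variance, tested on simulated data (Python 3.11.15, numpy 2.4.6, pandas 2.3.3, scipy 1.17.1). Filtered ChIP tags ran from 1747770 to 19926326. Named regions were the 5 strongest retained and 5 strongest not found within 1000 bp, 3 with most targets, the strongest RAD21, JUND, MYC and CTCF gains, the H3K4me1 region with most members, and those at the rule's edges. Regions, lists and rules were chosen with earlier results of these data known. Sequence, motifs and genes at these regions were not analysed here, nor were IgG peaks. The report and the closing section name the alternatives that moved a value.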

Additional observations from a re-analysis of the deposited data

How the results depend on the processing

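No replicates exist here, so counting error over regions is the only error given, and depth and called peaks limit every share. No paired analysis was possible because each target and siRNA has 1 library and the labels carry no replicate numbers. Alternatives for differences between classes in H3K4me1 and JUND, and for splits within the HNF4A-only enhancers, were chosen after these results were seen. Those for the shares and for HNF4A retention were fixed before them, with earlier results of these data known. The planned motif search was not run, and the causes of the changes below were not tested.

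The share with HNF4A found (31.2%) was 40.6% with FDR under 5% in both lists, 25.1% with scores of at least 100 in both, 41.7% with equal numbers of strongest peaks, 28.9% by summits within 250 bp and 29.4% with at least 50% of the control peak covered. The H3K4me1 share (83.7%) was 85.1% when JUND and NIPBL did not exclude and 89.4% with control H3K4me1 peaks at FDR under 5%. The difference from cohesin-bound enhancers (1.53 points) was −3.91 with no strata and −3.67 with strata of fold. Its interval excluded 0 above it at FDR under 5% (4.07), scores of at least 100 (2.63), equal numbers (3.62), summits (4.32), 50% coverage (3.77), 20 strata (2.89) and strata of width (3.67). The difference from enhancers co-bound without cohesin (−5.34) kept its direction throughout and was −2.20 with strata of width, where the interval held 0. The difference from solitary peaks (0.289) was −4.37 at FDR under 5%, −8.43 at scores of at least 100, −3.50 with equal numbers, −0.186 with 50% coverage, −1.71 with control H3K4me1 peaks at FDR under 5% and −0.154 with 20 strata. It was 14.6 with no strata and 8.91 with strata of fold. Where the H3K4me1 region held cohesin elsewhere, the HNF4A difference (−4.45) was −4.55 with no strata, with 0 inside the interval. The H3K4me1 differences from cohesin-bound enhancers and from those co-bound without cohesin (−3.11 and −4.49) were −9.67 and −9.30 with strata of HNF4A score. The JUND difference from solitary peaks (3.46) was 1.65 with strata of width added, 1.53 by summits and 0.711 at JUND scores of at least 100, each with an interval above 0.

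At RAD21 siRNA FDR under 5%, the share was 0.216% for JUND, 0.243% for KLF5, 0.108% for MYC, 0.432% for NIPBL, 0.162% for RAD21, 0.135% for REST and 0.027% for SMC3. At scores of at least 100 it was 1.51% for JUND, 0.351% for CTCF, 0.054% for KLF5, 0.378% for MYC, 0.513% for NIPBL, 0.108% for RAD21, 0.054% for REST and 0.0809% for SMC3. By summits within 250 bp it was 3.13% for JUND, 0.216% for CTCF, 0.351% for KLF5, 1.19% for MYC, 1.21% for NIPBL, 0.486% for RAD21, 0.027% for REST, 0.027% for RFX2 and 0.243% for SMC3. A margin of 1000 bp around the HNF4A peak left each of these shares within its own interval.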
